A study of Homo sapiens with 16 samples.

Results

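The 9 genes described here encode enzymes known to take methyl groups off lysine 9 of histone H3 (H3K9). They are KDM1A, KDM3A, KDM3B, JMJD1C, KDM4A, KDM4B, KDM4C, PHF8 and PHF2, chosen by gene symbol, without use of their measured values, from the 63653 genes that each file lists. Earlier results of these data were known when they were chosen. RNA came from HCT116, an established human colorectal carcinoma line, and was measured by total RNA sequencing in 4 groups of 2 libraries, each library sequenced in 2 runs. One group received 0.5 µM BIX 01294, a small molecule that inhibits the H3K9 methyltransferase G9a (gene EHMT2), over 72 h, and a second group was its control. Another group was transfected with 10 nM of siRNA (small interfering RNA) targeting G9a, again over 72 h, and the last was the control for that siRNA. The labels do not say what either control received. The submitters speak of biological replicates, but no label ties the libraries to separate cultures, and p-values below reflect the spread between these libraries alone, which may be technical.

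Methylated H3K9 is a mark of silent chromatin, which methyltransferases such as G9a write and demethylases remove. KDM1A (LSD1) is a flavin-dependent amine oxidase that works in the CoREST repressor complex, where it is best known for acting on lysine 4 of histone H3, and it can act on H3K9 in other settings. The others named here belong to the Jumonji family of iron-dependent and 2-oxoglutarate-dependent dioxygenases, in which the KDM3 enzymes act on low methylation states, the KDM4 enzymes also on trimethylated H3K9, and the PHF enzymes read methylated lysine 4 through a PHD finger.

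Levels are FPKM, fragments per kilobase of transcript relative to the mapped fragments of the library, averaged over the runs of a library and scaled between libraries. Each log2 fold change is on the log2(FPKM + 1) scale, which understates the change of low genes, and a gene was called when its p-value, adjusted by Benjamini-Hochberg over the 12846 genes tested, was under 0.05. All 9 demethylase genes were among those tested, and their lowest value in any library was 1.59 FPKM.

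The siRNA label was checked on EHMT2, which had 4.68 and 4.54 FPKM in siRNA libraries, against 15.9 and 17.8 FPKM in siRNA controls. The 2 inhibitor controls stood apart from the other 6 libraries. Over the genes tested, the log2 values of the inhibitor controls correlated with each other at r = 0.992, with the other libraries at 0.957 to 0.974, and the other 6 among themselves at 0.985 to 0.995. The summed level of 10 colon epithelial markers, 8 of them at a mean of 1 FPKM or more, was 485 and 498 FPKM in inhibitor libraries, 576 and 577 in inhibitor controls, 429 and 423 in siRNA libraries and 432 and 431 in siRNA controls. The highest of these markers were KRT8, KRT18 and EPCAM, with means of 193.1, 168.9 and 81.5 FPKM, while VIL1 averaged 0.233 FPKM and CDX1 0.00625 FPKM. The sum of 10 fibroblast markers lay between 1.75 and 3.76 FPKM in all 8 libraries, highest in inhibitor control replicate 2, with LUM and FAP at 0 in each. Not all fibroblast markers were absent. COL1A1 ranged from 0.729 to 2.07 FPKM, with 2.07 and 1.79 FPKM in inhibitor controls, and PDGFRB from 0.385 to 1.83 FPKM. The part of cell composition in the differences below was not tested, and in bulk RNA fewer cells of a type and less RNA per cell cannot be told apart. The fragments that the deposited confidence bounds imply, summed over genes above 5 FPKM, ranged from 1.87 to 6.31 per run in units of 1000000.

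In inhibitor-treated cells, KDM3A, KDM4A and KDM4B fell relative to the inhibitor controls, and the other 6 demethylase genes did not pass the test. Of the 9 genes, 3 were called, all lower, while 36.5% of all genes tested were called in this comparison, with 17.7% higher and 18.7% lower. The share of demethylase genes called was near that of all genes. Of all calls 48.6% were higher, against 34.8% with FPKM left as deposited. The median log2 fold change was -0.06 over the 9 genes and 0.01 over all genes tested. The inhibitor and inhibitor-control libraries did not overlap for 5 of the 9 genes, against 71.5% of all genes.

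KDM1A (chromosome 1, 23345941 to 23410182, plus strand, hg19) had 91.9 and 90.5 FPKM in inhibitor libraries, 82.1 and 83.8 FPKM in inhibitor controls, 94.7 and 91.8 FPKM in siRNA libraries and 94.5 FPKM in siRNA control replicate 2. After scaling, both inhibitor controls lay below every other library used. In FPKM as deposited they did not, with siRNA replicate 2 at 76.7 and 84.5 in its runs, against 85.3 to 93.9 over inhibitor-control runs. Cufflinks, the program that made the values, gave KDM1A the status FAIL in 3 of 16 runs, so that siRNA control replicate 1 dropped out of the fit for this gene and inhibitor replicate 2 rested on its first run. The failed runs held FPKM values of 94.6 and 101.6 in siRNA control replicate 1, with upper confidence bounds of only 3.99 and 4.11, and 105.3 in inhibitor replicate 2, with an upper bound of 4.58. The log2 fold change with the inhibitor against its control was 0.13 ± 0.05 (SE) with an adjusted p of 0.0632 (limma, n = 2 each). With every deposited value used whatever its status, KDM1A stood at 94.3 FPKM in inhibitor replicate 2 and 97.2 FPKM in siRNA control replicate 1, and the same comparison gave 0.16 with an adjusted p of 0.0247 (limma).

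KDM3A (chromosome 2, 86667770 to 86719839, plus strand) encodes a demethylase of mono- and dimethylated H3K9 that is known to be induced by hypoxia. It had 6.27 and 6.44 FPKM in inhibitor libraries, against 9.25 and 11.2 FPKM in inhibitor controls. Its values were 5.76 and 6.20 FPKM in siRNA libraries, against 6.27 and 5.60 FPKM in siRNA controls. The inhibitor controls were thus the highest 2 libraries, and the other 6 lay between 5.60 and 6.44 FPKM. KDM3A fell with the inhibitor by a log2 fold change of -0.60 ± 0.11 (SE), to 6.35 ± 0.121 FPKM in inhibitor libraries, against 10.2 ± 1.34 FPKM in inhibitor controls (SD, n = 2 each; limma, adjusted p = 0.00260). The call held under each alternative tried, leaving out each library included, with log2 fold changes from -0.72 to -0.48.

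KDM3B (chromosome 5, 137688285 to 137772717, plus strand), a close relative of KDM3A, had 20.8 and 18.0 FPKM in inhibitor libraries and 19.8 and 22.9 FPKM in inhibitor controls. In the siRNA arm it had 19.1 and 18.3 FPKM in siRNA libraries and 19.9 and 20.1 FPKM in siRNA controls. The inhibitor and inhibitor-control libraries overlapped, and the log2 fold change was -0.13 ± 0.09 (SE, limma, adjusted p = 0.280). JMJD1C (chromosome 10, 64926981 to 65225722, minus strand), the remaining gene of the KDM3 group, had 7.90 and 8.35 FPKM in inhibitor libraries and 8.16 and 7.71 FPKM in inhibitor controls. It had 8.26 and 8.04 FPKM in siRNA libraries and 8.35 and 7.18 FPKM in siRNA controls. All 4 groups overlapped, and the inhibitor comparison gave 0.03 on the log2 scale with a 95% interval of -0.18 to 0.24. Neither KDM3B nor JMJD1C was called with the inhibitor, and whether they differ from KDM3A was not tested.

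KDM4A (chromosome 1, 44115829 to 44171186, plus strand), a demethylase of trimethylated lysines 9 and 36 of histone H3, had 7.74 and 6.80 FPKM in inhibitor libraries and 11.7 and 9.02 FPKM in inhibitor controls. It had 7.07 and 7.74 FPKM in siRNA libraries and 7.94 and 5.72 FPKM in siRNA controls. Both inhibitor controls were above the other 6 libraries. The mean was 7.27 ± 0.667 FPKM in inhibitor libraries and 10.3 ± 1.87 FPKM in inhibitor controls (SD, n = 2 each), and the fall of -0.45 ± 0.16 on the log2 scale was just past the threshold (limma, adjusted p = 0.0492). This call did not hold without inhibitor replicate 1 (adjusted p = 0.0859), inhibitor replicate 2 (0.226) or inhibitor control replicate 1 (0.274, limma, log2 fold change -0.28). KDM4A-AS1, an antisense gene that overlaps KDM4A, averaged 3.30 FPKM, with a log2 fold change of -0.12 in the same comparison, and no source used here says whether counting was by strand.

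KDM4B (chromosome 19, 4969125 to 5153606, plus strand), a KDM4 enzyme known as a hypoxia-inducible gene, had 1.95 and 1.85 FPKM in inhibitor libraries and 3.42 and 3.21 FPKM in inhibitor controls. It had 1.59 and 2.26 FPKM in siRNA libraries and 1.97 and 2.99 FPKM in siRNA controls. The inhibitor controls were again the highest libraries, with siRNA control replicate 2 next to them. KDM4B fell to 1.90 ± 0.0727 FPKM in inhibitor libraries, against 3.32 ± 0.147 FPKM in inhibitor controls (SD, n = 2 each), which is -0.57 ± 0.17 on the log2 scale (SE, limma, adjusted p = 0.0270). The call was lost when any 1 of the 4 libraries was left out, with adjusted p-values of 0.0860 without inhibitor replicate 1, 0.119 without inhibitor replicate 2, 0.109 without inhibitor control replicate 1 and 0.0726 without inhibitor control replicate 2 (limma). Its log2 fold change stayed between -0.61 and -0.54 over those refits.

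KDM4C (chromosome 9, 6720863 to 7175648, plus strand), the other KDM4 gene of the set, had 6.79 and 7.97 FPKM in inhibitor libraries and 6.66 and 6.04 FPKM in inhibitor controls. It had 7.38 and 7.62 FPKM in siRNA libraries and 8.00 and 6.25 FPKM in siRNA controls. Inhibitor libraries were above both inhibitor controls, unlike for KDM4A and KDM4B, but the difference of 0.19 ± 0.12 on the log2 scale did not pass the test (SE, limma, adjusted p = 0.264). The genes KDM4C and JMJD1C each overlap a gene at 1 FPKM or more, the lincRNA RP11-390F4.3 at 1.92 FPKM and the pseudogene TATDN1P1 at 1.77 FPKM.

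PHF8 (chromosome X, 53963109 to 54075391, minus strand), which demethylates H3K9 and lysine 20 of histone H4, had 7.13 and 5.13 FPKM in inhibitor libraries and 7.61 and 5.32 FPKM in inhibitor controls. It had 4.67 and 4.81 FPKM in siRNA libraries and 5.35 and 5.73 FPKM in siRNA controls. The spread within the inhibitor group and within its control was wider than the distance between them, and the log2 fold change was -0.06 ± 0.17 (SE, limma, adjusted p = 0.795). PHF2 (chromosome 9, 96338689 to 96441869, plus strand), whose activity on H3K9 is known to depend on phosphorylation and a partner protein, had 3.26 and 2.89 FPKM in inhibitor libraries and 3.16 and 3.03 FPKM in inhibitor controls. It had 2.61 and 3.06 FPKM in siRNA libraries and 2.68 and 3.23 FPKM in siRNA controls. All groups overlapped for PHF2, and the inhibitor comparison gave -0.01 with a 95% interval of -0.29 to 0.27.

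**Figure D1:**
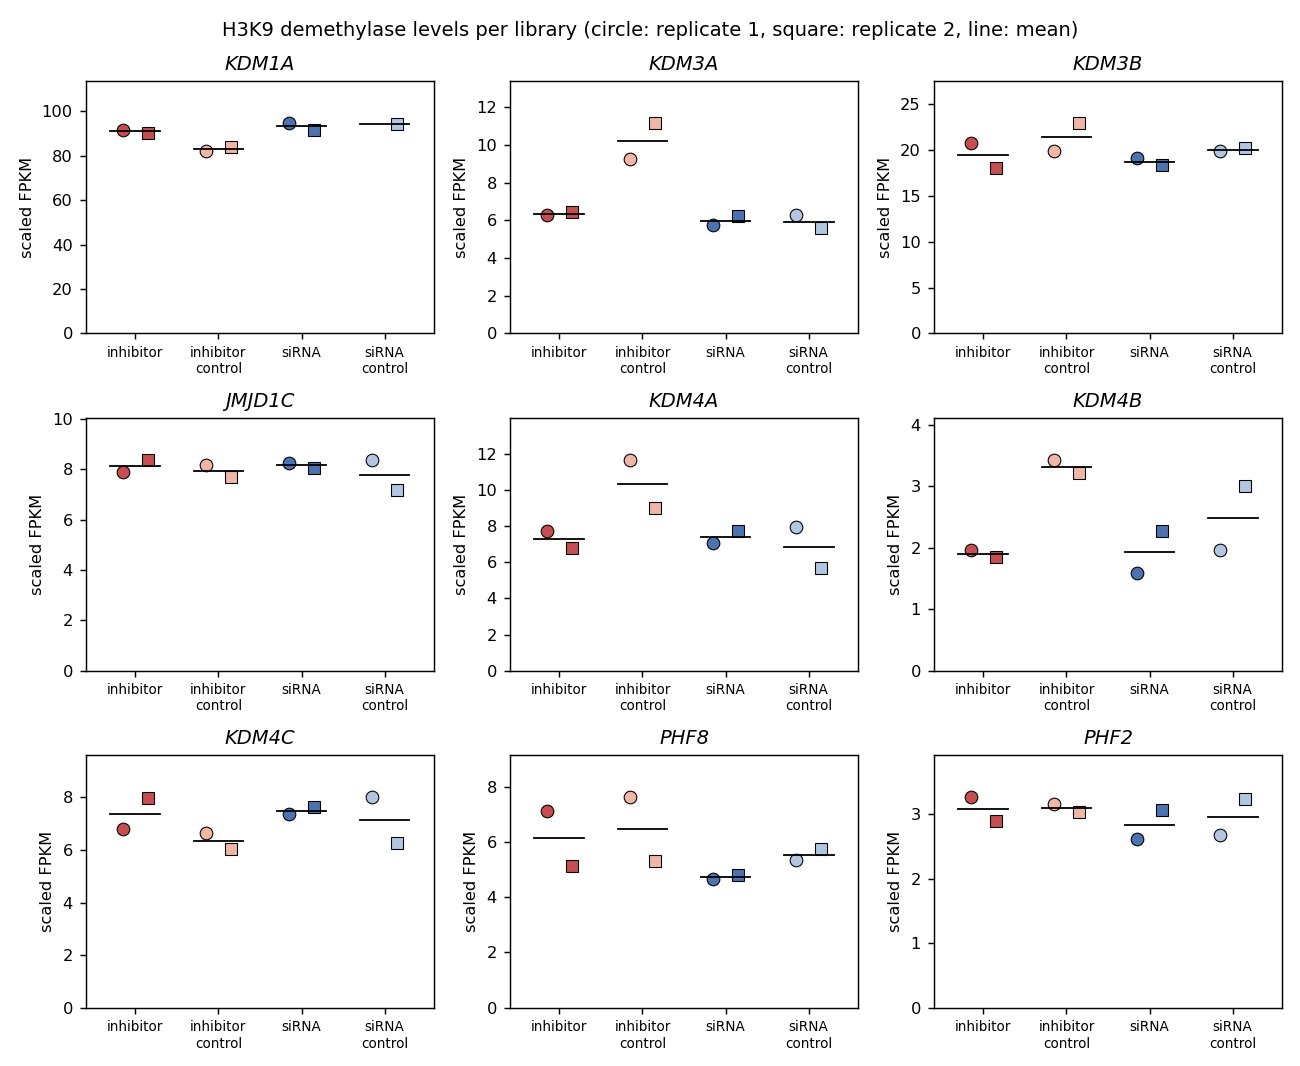
Scaled FPKM of each demethylase gene in every library, with 1 panel a gene, the 4 groups along the horizontal axis, circles for replicate 1, squares for replicate 2 and a line at the group mean. In KDM3A, KDM4A and KDM4B the 2 inhibitor controls are the highest libraries, and in KDM1A they are the lowest, where siRNA control replicate 1 is missing because its runs failed.

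The promoters of the 3 genes that were lower with the inhibitor are shown because 2 of these genes are known to answer to hypoxia-inducible factors, whose core motif was searched in them. All 9 genes matched the RefSeq promoter table (build GRCh38.p14, 250 bases before to 50 after a start site), with 14 windows in all. Capitals mark ACGTG or GCGTG on either strand, where an ACGTG and its reverse complement that overlap count as 2 matches. KDM3A is at chr2:86441121-86441420, KDM4A at chr1:43649899-43650198 and KDM4B at chr19:4968863-4969162, all on the plus strand, and the KDM3A window is the first of its 2 listed starts.
KDM3A: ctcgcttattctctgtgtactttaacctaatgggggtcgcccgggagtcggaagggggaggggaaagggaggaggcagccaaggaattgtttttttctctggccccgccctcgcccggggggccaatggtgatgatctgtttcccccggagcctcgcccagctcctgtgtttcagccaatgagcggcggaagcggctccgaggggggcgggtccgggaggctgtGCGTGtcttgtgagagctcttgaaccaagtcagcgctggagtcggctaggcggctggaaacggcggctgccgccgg
KDM4A: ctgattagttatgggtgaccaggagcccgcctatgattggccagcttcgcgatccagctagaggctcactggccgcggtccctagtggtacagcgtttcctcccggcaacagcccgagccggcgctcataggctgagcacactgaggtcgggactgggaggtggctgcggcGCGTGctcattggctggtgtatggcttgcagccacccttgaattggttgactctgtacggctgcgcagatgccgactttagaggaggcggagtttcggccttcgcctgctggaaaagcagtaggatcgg
KDM4B: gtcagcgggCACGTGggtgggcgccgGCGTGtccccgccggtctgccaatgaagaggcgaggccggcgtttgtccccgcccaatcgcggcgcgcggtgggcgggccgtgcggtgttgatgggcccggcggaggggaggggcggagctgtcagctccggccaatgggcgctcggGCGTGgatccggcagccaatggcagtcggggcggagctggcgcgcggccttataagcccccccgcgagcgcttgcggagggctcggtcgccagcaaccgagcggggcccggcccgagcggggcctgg

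The KDM3A window held 1 match, which began 26 bases before the start site, and the KDM4A window held 1, which began 79 bases before it. The KDM4B window held 4 matches, beginning 241, 240, 224 and 77 bases before the start site, the first 2 of which overlap in 1 palindrome. A match is a description of letters: 48.4% of the 35116 promoter windows of the same length held at least 1, and 10.1% held 3 or more. Of the 14 windows of the demethylase genes, 7 held a match, and they belonged to 6 of the 9 genes, KDM1A, JMJD1C and KDM4C among them. The KDM4C window held 5 matches and the KDM1A window 4, and neither gene was called lower with the inhibitor.

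With the siRNA against G9a, none of the 9 demethylase genes was called by limma, and none had an unadjusted p under 0.05. Among all genes tested, 2.13% were called in this comparison. The log2 fold changes ran from -0.24 ± 0.17 in KDM4B to 0.12 ± 0.16 in KDM4A (SE), and adjusted p-values lay between 0.445 and 0.969 (limma). The median was -0.02 over the 9 genes and -0.01 over all genes.

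KDM3A averaged 5.98 ± 0.314 FPKM in siRNA libraries and 5.93 ± 0.471 FPKM in siRNA controls (SD, n = 2 each), a log2 fold change of 0.01 with a 95% interval of -0.23 to 0.25. The size of its fall with the inhibitor thus lay outside this interval. KDM4A averaged 7.41 ± 0.478 FPKM in siRNA libraries and 6.83 ± 1.57 FPKM in siRNA controls, with an interval of -0.23 to 0.47. For KDM4B, at 1.92 ± 0.479 FPKM in siRNA libraries and 2.48 ± 0.725 FPKM in siRNA controls, the interval of -0.63 to 0.14 took in the size of its fall with the inhibitor. KDM3B and PHF8 were lower in both siRNA libraries than in both siRNA controls, the only 2 of the 9 whose groups did not overlap (against 49.7% of all genes), and neither difference, -0.09 and -0.19 on the log2 scale, passed the test (limma, adjusted p = 0.603 and 0.563).

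In KDM3A the change from inhibitor controls to inhibitor libraries differed from the change from siRNA controls to siRNA libraries. This contrast takes in the inhibitor controls, which stood apart from the other 6 libraries. The difference was -0.61 ± 0.15 on the log2 scale (SE, limma, adjusted p = 0.0329), where 11.8% of all genes were called. This call was lost when inhibitor replicate 1, inhibitor replicate 2, inhibitor control replicate 2, siRNA replicate 2 or siRNA control replicate 2 was left out, with adjusted p-values from 0.0839 to 0.105 (limma) in those 5 refits, and with differences from -0.74 to -0.49 over all 8. The KDM3A call was also lost with no filter on low values (adjusted p = 0.139, limma), with FPKM as deposited (0.0755) and with no mean-variance trend (0.0503). It was lost on the first run alone (0.153, limma) and on the second run alone (0.0668). For KDM4A the difference was -0.56 ± 0.22 (limma, adjusted p = 0.130), and for KDM4B it was -0.33 ± 0.24 (0.414). No other demethylase gene passed this test, with adjusted p-values up to 0.925.

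The 2 control groups, which are both controls of the same cell line, were compared as well. KDM3A was lower in siRNA controls, at 5.93 ± 0.471 FPKM, against 10.2 ± 1.34 FPKM in inhibitor controls (SD, n = 2 each), or -0.69 ± 0.11 on the log2 scale (SE, limma, adjusted p = 0.00124). KDM4A was lower too, at 6.83 ± 1.57 FPKM in siRNA controls and 10.3 ± 1.87 FPKM in inhibitor controls, with -0.54 ± 0.16 (SE, limma, adjusted p = 0.0231). That call was lost without inhibitor control replicate 1 (adjusted p = 0.149, limma) or siRNA control replicate 2 (0.139), on the second run alone (0.0926) and with low values left unfiltered (0.127). KDM4B gave -0.33 ± 0.17 and was not called (adjusted p = 0.161), though it was without siRNA control replicate 2 (-0.54, adjusted p = 0.0496, limma).

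KDM1A was higher in the single siRNA control used, at 94.5 FPKM, than in inhibitor controls, at 82.9 ± 1.18 FPKM (SD, n = 2), or 0.19 ± 0.06 on the log2 scale (SE, limma, adjusted p = 0.0404, with siRNA control replicate 1 dropped). It was not called without inhibitor control replicate 1 (adjusted p = 0.132) or inhibitor control replicate 2 (0.0848, limma), and with FPKM left as deposited the change was -0.01. The call was also lost with no filter on low values (0.0703), quantile normalization (0.0802), the first run alone (0.266), no mean-variance trend (0.135) and a fit of only the groups compared (adjusted p = 0.0938, limma). In all, 3 of the 9 genes were called between the control groups, against 38.2% of all genes tested. Of all calls 50.3% were higher, against 18.0% with FPKM left as deposited, a setting that moved the median log2 fold change of all genes to -0.11.

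Set against the siRNA controls, the inhibitor libraries showed no called demethylase gene by limma, and none had an unadjusted p under 0.05. In this comparison 0.0389% of all genes, 5 in number, were called. KDM3A averaged 6.35 ± 0.121 FPKM in inhibitor libraries and 5.93 ± 0.471 FPKM in siRNA controls (SD, n = 2 each), a log2 fold change of 0.09 with a 95% interval of -0.16 to 0.33. KDM4A gave 0.09, with an interval of -0.26 to 0.44, and KDM4B gave -0.25, with an interval of -0.63 to 0.14. The fall of KDM3A, KDM4A and KDM4B with the inhibitor was therefore seen against the inhibitor controls and not called against the siRNA controls. These comparisons share libraries and are not independent of each other. The part of the inhibitor-control libraries, which stood apart from the other 6, and the part of the drug cannot be told apart in this design.

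**Figure D2:**
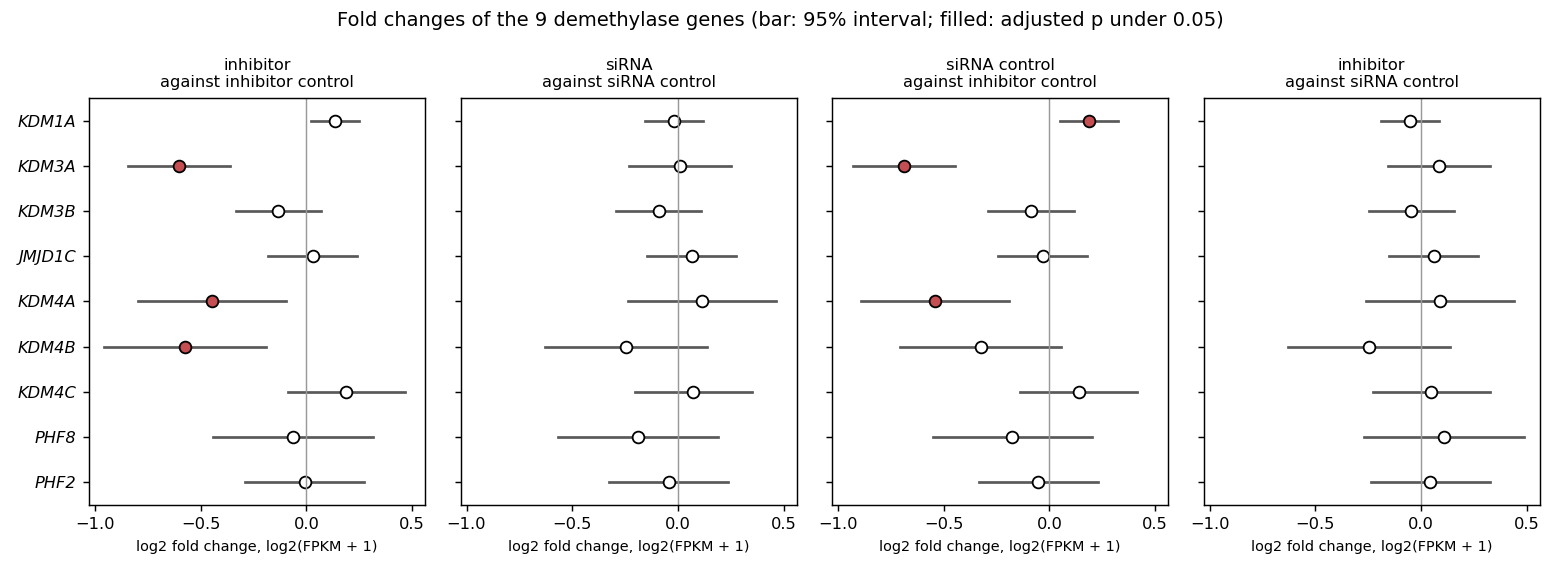
Log2 fold changes of the 9 genes on the log2(FPKM + 1) scale in 4 comparisons, with bars for the 95% interval and filled circles for an adjusted p under 0.05 (limma). Filled circles stand only in the 2 comparisons with the inhibitor controls, for KDM3A and KDM4A in both, KDM4B in the first and KDM1A in the other.

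By level, KDM1A was the most abundant of the 9 per kilobase, with a mean of 89.9 FPKM over the 7 libraries used, the 94.9th percentile of the genes tested. KDM3B followed at 19.9 FPKM. JMJD1C at 7.99, KDM4A at 7.96, KDM3A at 7.12, KDM4C at 7.09 and PHF8 at 5.72 FPKM came next, and the ranges of neighbours in this order overlapped. These means pool groups that differ: KDM3A was above KDM4C in the 2 inhibitor controls and below it in the other 6 libraries. PHF2 at 2.99 FPKM and KDM4B at 2.41 FPKM were lowest, and their ranges overlapped as well. The steps between KDM1A and KDM3B, KDM3B and JMJD1C, and PHF8 and PHF2 were without overlap.

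KDM1A alone made up 59.8% and 62.1% of the summed FPKM of the 9 genes in inhibitor libraries (every deposited value used), against 54.1% and 55.1% in inhibitor controls, and 61.2% to 62.7% in the siRNA arm. The sum over the 9 differed little, between 150 and 158 FPKM. Without KDM1A it was 61.8 and 57.5 FPKM in inhibitor libraries, 69.7 and 68.4 in inhibitor controls, 56.4 and 58.1 in siRNA libraries and 60.4 and 56.9 in siRNA controls. The Jumonji genes thus summed highest in the 2 inhibitor controls.

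The highest library exceeded the lowest by a factor of 2.16 in KDM4B, 2.04 in KDM4A and 1.99 in KDM3A, 1.63 in PHF8, and between 1.15 and 1.33 in the other 5. Precision differed among them. The deposited 95% confidence bounds of a run were on median 56.2% of the FPKM to either side in KDM4B, 28.4% in KDM3A, 20.6% in KDM4A and 5.43% in KDM1A. Between the runs of a library, KDM4B moved by a factor of 0.52 to 1.34 (second over first), and KDM3A by 0.93 to 1.28.

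Run by run, the deposited FPKM of KDM3A lay between 5.94 and 7.06 in the 4 inhibitor runs, against 9.51 to 11.7 in the 4 inhibitor-control runs. The values thus did not overlap, but the bounds did, from 3.52 up to 9.20 in inhibitor runs and from 7.78 up to 15.2 in inhibitor-control runs. KDM4A ran from 6.94 to 8.04 FPKM in inhibitor runs, against 8.83 to 13.5 in inhibitor-control runs. KDM4B ran from 1.89 to 2.08 FPKM in inhibitor runs, with bounds from 0.483 to 3.50, against 3.05 to 4.01 in inhibitor-control runs, with bounds from 1.19 to 5.54.

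**Figure D3:**
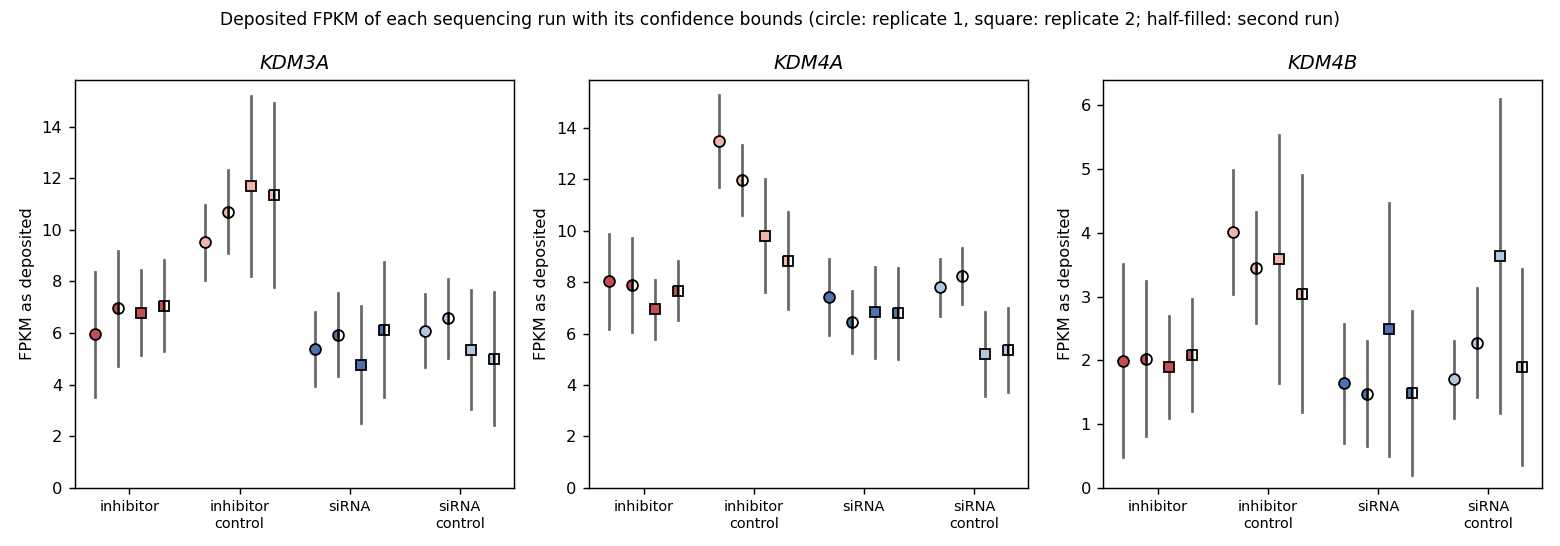
Deposited FPKM of KDM3A, KDM4A and KDM4B in each of the 16 runs, with vertical bars for the Cufflinks confidence bounds, circles for replicate 1, squares for replicate 2 and half-filled marks for the second run. The 4 inhibitor-control runs lie above the 4 inhibitor runs in each gene, with bounds that overlap.

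The genes nearest to a demethylase gene over the 8 libraries were picked from those tested, so their closeness follows from the choice. For the 3 demethylase genes with the widest range, likeness was the root mean square difference from the gene in log2(FPKM + 1), centred on each gene's mean. Closest to KDM3A were VAV2 and CPT1A, each at 0.049. CPT1A, for example, had 13.3 and 13.3 FPKM in inhibitor libraries, against 20.6 and 22.5 FPKM in inhibitor controls. Closest to KDM4A were EXOG at 0.072 and ALG11 at 0.083, and closest to KDM4B were MED4 at 0.052 and TAF1 at 0.063.

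Related genes were read from fixed lists, chosen like the members with earlier results of these data known. Of 5 further H3K9 demethylases, 4 could be tested, and KDM7A, a dual H3K9 and H3K27 demethylase, fell with the inhibitor, to 1.45 ± 0.167 FPKM, against 2.43 ± 0.358 FPKM in inhibitor controls (SD, n = 2 each; log2 fold change -0.49, limma, adjusted p = 0.0311). KDM7A was not called without either inhibitor replicate or without inhibitor control replicate 2, with adjusted p-values of 0.155, 0.0786 and 0.166 (limma), nor with no filter on low values (0.127), quantile normalization (0.0525), the first run alone (0.0667) or the second run alone (0.146). KDM1B, the flavin-dependent relative of KDM1A, KDM4D and HR were not called, and KDM4E was listed at 0 in each library. With the siRNA none of the 4 was called, and their median log2 fold change was 0.15, against -0.13 with the inhibitor. Of all genes tested, 36.5% were called with the inhibitor, 18.7% of them lower counted over all genes. KDM7A was also lower in siRNA controls than in inhibitor controls (-0.65, limma, adjusted p = 0.00869).

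Of 15 partners of KDM1A tested, ZNF217, RCOR3 and HDAC2 fell with the inhibitor and the other 12 were not called, with a median of -0.12. Of all genes tested, 36.5% were called in this comparison and 18.7% were called lower. ZNF217, a zinc finger protein found with the CoREST complex, had 3.45 ± 0.0309 FPKM in inhibitor libraries and 8.65 ± 0.421 FPKM in inhibitor controls, a log2 fold change of -1.12 (limma, adjusted p = 0.000269). HDAC2, a deacetylase of the complex, had 27.9 ± 0.0138 FPKM in inhibitor libraries and 43.9 ± 1.69 FPKM in inhibitor controls (-0.64, limma, adjusted p = 0.00164). HDAC1, the other deacetylase in the list, averaged 49.1 FPKM over all libraries and was not called with the inhibitor (-0.13, limma, adjusted p = 0.117). With the siRNA no partner was called. In siRNA controls against inhibitor controls, ZNF217 gave -1.03 (limma, adjusted p = 0.000356) and HDAC2 -0.77 (0.000566), while RCOR3, at -0.32, was not called (0.0512). Of 8 demethylases of other histone lysines, KDM2A fell with the inhibitor (-0.38, limma, adjusted p = 0.00329) and 7 were not called, and the siRNA gave no call. KDM2A was also lower in siRNA controls than in inhibitor controls (-0.29, limma, adjusted p = 0.0125).

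**Figure D4:**
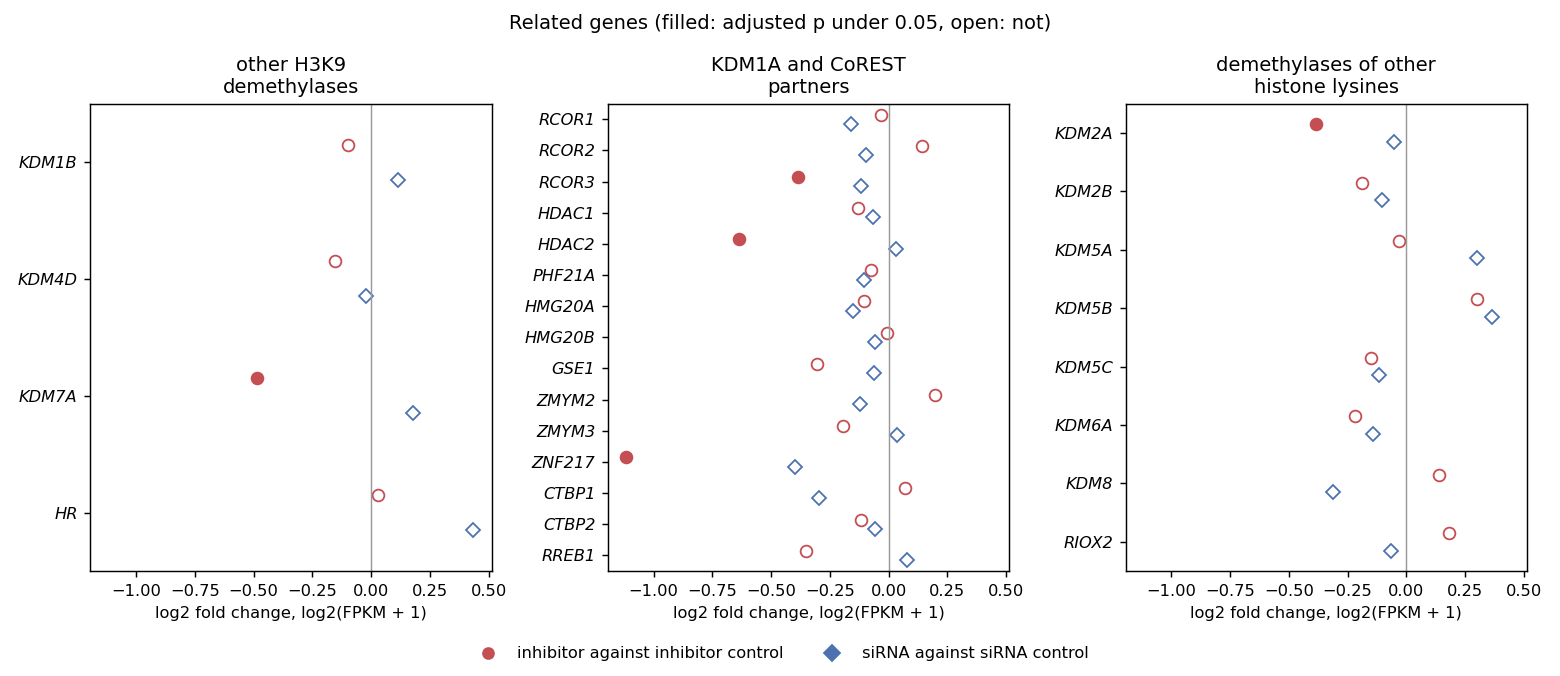
Log2 fold changes on the log2(FPKM + 1) scale of further H3K9 demethylases, KDM1A partners and demethylases of other lysines, with circles for inhibitor against inhibitor control, diamonds for siRNA against siRNA control and filled marks for an adjusted p under 0.05 (limma). The 5 filled marks are all circles left of 0, the lowest of them ZNF217.

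The opposing enzymes and the supply of cofactors were read in the same way. Of 12 H3K9 methyltransferases and partners, 1 rose and 3 fell with the inhibitor, with a median of -0.15. Of all genes tested, 17.7% were called higher and 18.7% lower in this comparison. EHMT1 (GLP), the partner of G9a, had 10.9 and 12.4 FPKM in inhibitor libraries and 25.5 and 24.0 FPKM in inhibitor controls (-1.03, limma, adjusted p = 0.000352), and TRIM28, a corepressor that brings in an H3K9 methyltransferase, gave -0.37 (adjusted p = 0.000544). In siRNA controls against inhibitor controls, EHMT1 gave -0.79 (limma, adjusted p = 0.00110) and TRIM28 -0.36 (0.000606). With the siRNA, EHMT2 alone was called in this list, at -1.67 ± 0.09 (limma, adjusted p = 0.000267). Of 12 genes induced by hypoxia-inducible factors, KDM3A not counted, 1 rose and 3 fell with the inhibitor, with a median of 0.10. NDRG1 gave -0.66 (limma, adjusted p = 0.0150) and the glucose transporter gene SLC2A1 -0.63 (0.000290). The call of NDRG1 was lost without inhibitor replicate 2 (adjusted p = 0.0971) or inhibitor control replicate 1 (0.0755, limma), and also with no filter on low values (0.115) and on the first run alone (0.179).

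SLC2A1 fell with the siRNA as well, to 18.8 ± 0.441 FPKM, against 27.7 ± 2.16 FPKM in siRNA controls (SD, n = 2 each; -0.53, limma, adjusted p = 0.0174). In siRNA controls against inhibitor controls, SLC2A1 gave -0.63 (limma, adjusted p = 0.000258) and NDRG1 -0.58 (0.0256). Of 16 genes listed for the cofactors 2-oxoglutarate and FAD, not all of which make or use them, 5 rose and 6 fell with the inhibitor. Their median was -0.01. They included RFK, the riboflavin kinase, at 0.65 (limma, adjusted p = 0.000583) and OGDH, a subunit of the 2-oxoglutarate dehydrogenase complex, at -0.83 (0.00115). Of all genes tested, 17.7% were called higher and 18.7% lower in this comparison. In siRNA controls against inhibitor controls, RFK gave 0.56 (limma, adjusted p = 0.00104) and OGDH -0.59 (0.00577). With the siRNA, IDH1, which makes 2-oxoglutarate in the cytosol, rose to 50.6 ± 0.304 FPKM, against 40.4 ± 1.64 FPKM in siRNA controls (0.32, limma, adjusted p = 0.0364), and 15 were not called. The siRNA calls did not hold without siRNA replicate 1 or siRNA control replicate 2, at adjusted p-values of 0.101 and 0.125 for SLC2A1 and 0.146 and 0.222 for IDH1, and that of IDH1 was also lost without siRNA replicate 2 (0.101, limma). Both were lost as well with no filter on low values, with short genes kept, on either run alone, with no mean-variance trend and in a fit of only the groups compared, at adjusted p-values of 0.0536 to 0.108 for SLC2A1 and 0.0759 to 0.142 for IDH1, and IDH1 also with FPKM as deposited (0.292, limma). No gene of these lists was called between inhibitor libraries and siRNA controls (limma).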

How the data were processed

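Total RNA of HCT116 cells was sequenced on a HiSeq-2000 from stranded libraries, per the labels' protocols. The authors deposited FPKM per gene and run with confidence bounds, made with Cufflinks, per the file headers. The submitters' processing notes also name STAR 2.3.0e, SAMtools 0.1.19 and hg19, and no source used here states the annotation release or strand setting. FPKM are relative to a library total, so abundant RNAs can shift other genes. The 6 highest genes took 48.5% to 55.8% of a run. Read counts were not used here, so depth is known only through the bounds.

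Groups came from the labels. Runs were averaged on the FPKM scale (n = 2 libraries a group), runs whose status was not OK were treated as missing, and median-of-ratios factors (0.878 to 1.09) scaled the libraries. Kept were genes with a mean of at least 1 FPKM whose locus spans at least 300 bases. A second PHF8 entry on a patch sequence, listed at 0, was not used. limma 3.58.1 (R 4.3.3, mean-variance trend) tested log2(FPKM + 1), two-sided, with all 4 groups in 1 fit (4 residual and 5.04 prior degrees of freedom), and was tested on simulated data. Alternatives were other pseudocounts, filters, scalings, runs, variance settings, a replicate block and leaving out each library.

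Named were all 9 members, EHMT2, the 2 genes most like each of the 3 most variable members, and per fixed list and treatment up to 2 called genes with the largest change. RCOR3 and the genes of a list that were not called are named to complete counts. The members and lists were chosen with earlier results of these data known. The labels do not say whether replicate numbers pair libraries, so the block is an alternative only.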

Additional observations from a re-analysis of the deposited data

Results flagged for a closer look

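KDM3A drew attention because its change with the inhibitor differed from its change with the siRNA in a test of the difference itself. The difference was -0.61 ± 0.15 on the log2 scale (SE, limma, adjusted p = 0.0329), with log2 fold changes of -0.60 for inhibitor against inhibitor control and 0.01 for siRNA against siRNA control. KDM3A was lower in 2 of 2 inhibitor libraries than in either inhibitor control, while siRNA and siRNA-control libraries overlapped. Of all genes tested, 71.5% did not overlap in the inhibitor comparison and 49.7% in the siRNA comparison. For the difference itself, 11.8% of all genes were called. The inhibitor controls, which stood apart from the other 6 libraries over all genes, were the highest libraries for KDM3A. Between inhibitor libraries and siRNA controls the log2 fold change of KDM3A was 0.09. The adjusted p of the difference ranged from 0.0196 to 0.153 over the alternatives.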

How the results depend on the processing

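With all values, limma called 4685 genes for inhibitor against inhibitor control, 273 for siRNA against siRNA control, 4913 for siRNA control against inhibitor control, 5 for inhibitor against siRNA control and 1519 for the difference of effects, of which 3, 0, 3, 0 and 1 were demethylase genes. KDM3A kept its call against the inhibitor controls in each alternative run, with adjusted p-values (limma) from 0.00126 to 0.0233. Besides the calls lost on leaving out a library, KDM4A lost its inhibitor call at a pseudocount of 0.1 (0.0520), with no filter on low values (0.219), with short genes kept (0.0776), with FPKM as deposited (0.0506), with quantile normalization (0.0949), on the second run alone (0.175) and with no mean-variance trend (0.0749). KDM4B lost its call with no filter (0.137), on the first run alone (0.112) and on the second (0.0591). The cause was not tested. Against the siRNA controls no demethylase gene was called by limma in any alternative, whether for the inhibitor or for the siRNA.

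With no filter on low values, 2994, 5, 3173, 0 and 239 genes were called in those 5 tests, with 1 demethylase gene in the first, 1 in the third and 0 for the difference. A mean of at least 5 FPKM, which removes KDM4B and PHF2, gave 587 genes for the siRNA and 29 for inhibitor against siRNA control. Short genes kept gave 22 and 12. These filter settings change how many genes were tested, so their counts cannot be read as shares of the genes in the main test. Robust empirical Bayes gave 11 for inhibitor against siRNA control. With no mean-variance trend there were 6 for the siRNA, 0 for inhibitor against siRNA control, and 878 with 0 demethylase genes for the difference. Fitting the groups compared alone gave 24 for the siRNA and was not possible for the difference of effects. The replicate block gave 68 for the siRNA, and it lost the calls of IDH1 (adjusted p = 0.0664) and of KDM1A between the control groups (0.0871, limma). Same-numbered libraries of compared groups correlated in their deviations at -0.07 to 0.05. The labels do not say whether the numbers pair libraries, and this check cannot exclude it.

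With FPKM as deposited, 3112 genes were called for the inhibitor, 134 for the siRNA, 32 for inhibitor against siRNA control, and 738 with 0 demethylase genes for the difference. The sign then turned for KDM3A with the siRNA (log2 fold change -0.039), for KDM1A between the control groups (-0.011), and for KDM1A (0.13) and KDM3B (0.071) between inhibitor and siRNA control. Of the siRNA calls, 37.7% were higher, against 14.9% without scaling and 48.7% with quantile normalization. Quantile normalization turned the sign of PHF8 (0.023) and PHF2 (0.061) with the inhibitor, and of JMJD1C (0.050) and PHF2 (0.0019) between the control groups.

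The first run alone gave 3116, 31, 3211, 1 and 524 calls in the 5 tests, with 0 demethylase genes for the difference. It turned the sign of JMJD1C (-0.015) and PHF8 (0.075) with the inhibitor, of KDM1A (0.028), KDM3A (-0.095) and PHF2 (0.0042) with the siRNA, and of KDM1A (0.019) between inhibitor and siRNA control. The second run alone gave 3288 genes for the inhibitor, 1 of them a demethylase gene. It gave 45 genes for the siRNA, 2 for inhibitor against siRNA control, and 717 with 0 demethylase genes for the difference. It turned the sign of KDM4C (-0.028) and PHF2 (0.044) with the inhibitor, of JMJD1C (-0.098) and KDM4C (-0.022) with the siRNA, and of JMJD1C (0.085) and PHF2 (0.0083) between the control groups. Between inhibitor and siRNA control it turned JMJD1C (-0.0036), KDM4C (-0.26) and PHF8 (-0.012). None of the fold changes that turned sign was called, apart from that of KDM1A between the control groups.

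Leaving out each library in turn, where a lone library is assumed to vary like the other groups, gave 2668 (without inhibitor replicate 2) to 3468 genes and 1 to 2 demethylase genes called for the inhibitor, 9 to 421 genes for the siRNA, 0 to 43 for inhibitor against siRNA control and 1 to 3 demethylase genes between the control groups. For the difference it gave 488 to 1482 genes and 0 to 1 demethylase genes. The fold changes that turned sign on the way ran as follows. With the inhibitor they were -0.0061 to 0.067 in JMJD1C, -0.29 to 0.16 in PHF8 and -0.074 to 0.056 in PHF2. With the siRNA they were -0.042 to 0.0037 in KDM1A, -0.059 to 0.080 in KDM3A, -0.031 to 0.16 in JMJD1C, -0.090 to 0.32 in KDM4A, -0.083 to 0.23 in KDM4C and -0.15 to 0.058 in PHF2. Between the control groups they were -0.19 to 0.012 in KDM3B, -0.13 to 0.065 in JMJD1C, -0.018 to 0.29 in KDM4C, -0.40 to 0.048 in PHF8 and -0.15 to 0.049 in PHF2. Between inhibitor and siRNA control they were -0.14 to 0.052 in KDM3B, -0.035 to 0.16 in JMJD1C, -0.11 to 0.30 in KDM4A, -0.11 to 0.21 in KDM4C, -0.093 to 0.31 in PHF8 and -0.057 to 0.15 in PHF2. KDM1A has no value against the siRNA controls without siRNA control replicate 2.

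Without read counts, precision per run is known only through the deposited bounds, which were widest in KDM4B and PHF8.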
